A study of Homo sapiens with 21 samples.

Results

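The fatty acid and glycerolipid synthesis enzymes described here are 10 genes, found by name among the 56632 genes of the 3 count tables. They are SREBF1, the gene of the regulator SREBP1, and 9 enzymes, ACLY, ACACA, FASN, SCD, ELOVL5, ELOVL6, FADS1, FADS2 and AGPAT9, the older symbol of GPAT3. They were chosen with their levels against each line's own control already known, so those comparisons are given below as a description. All 10 were counted in all 21 mRNA sequencing libraries of 5 human lung cell lines.

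The tolerance libraries were gefitinib-tolerant, osimertinib-tolerant and parental cells, with 1 library of each from the EGFR-mutant lung cancer lines PC9 and HCC827. Gefitinib and osimertinib are inhibitors of the EGFR kinase. The labels give 40 nM gefitinib and 20 nM osimertinib over 14 days in one sentence on 4 lines, read here as the dose of each drug, although the wording does not settle which line had which. In the overexpression libraries, AALE, HCC827 and PC9 cells carried a lentivirus for miR-147b, for miR-21 or for a scrambled control, and all 9 were selected with puromycin. AALE is an immortalized tracheobronchial epithelial line kept in SAGM medium, whereas the cancer lines grew in DMEM with serum, so line and medium cannot be told apart for AALE. In the knockdown libraries, H1975 and PC9ER cells, both EGFR-mutant with the further gatekeeper mutation, were given an anti-miR-147b, an anti-miR-21 or a control reagent. Each line and condition had 1 library, and nothing in the labels says that libraries of one line came from separate cultures. In the drug and miRNA fits, the p-values below therefore measure how far the lines disagree in their response, together with any technical spread. In the comparisons of lines, they measure the spread between the libraries of a line, which may be technical.

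De novo lipid synthesis starts in the cytosol, where ATP citrate lyase (ACLY) splits citrate into acetyl-CoA. Acetyl-CoA carboxylase (ACACA) makes malonyl-CoA, and fatty acid synthase (FASN) builds palmitate from both. ELOVL6 lengthens palmitate, SCD places the first double bond to make monounsaturated acids, and FADS2, FADS1 and ELOVL5 desaturate and lengthen polyunsaturated acids. AGPAT9 attaches an acyl chain to glycerol-3-phosphate, the first committed step towards phospholipids and triglycerides. SREBP1 is carried out of the endoplasmic reticulum by SCAP when INSIG proteins let go of the pair. Its cleaved form then switches on most of these genes together with the CCAAT-binding factor NF-Y. In the lung the route is best known from alveolar type II cells, which use it for surfactant, and it is described as raised in many EGFR-driven cancers.

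The mature miRNAs that were overexpressed or knocked down are shown to relate their seeds to the member transcripts. Sequences are from RefSeq (GRCh38.p14), and the capitals mark the seed, bases 2 to 8. The miR-147b sequence lies at chr15:45433098-45433118 on the plus strand and the miR-21 sequence at chr17:59841273-59841294 on the plus strand.
hsa-miR-147b-3p: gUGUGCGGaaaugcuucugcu
hsa-miR-21-5p: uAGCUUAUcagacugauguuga
A match to the miR-147b seed (CCGCACA on the transcript) was found in the 3′ UTR of 1 of the 10 members, FASN, at chr17:82078558-82078564 on the minus strand of GRCh38. It lies at bases 579 to 585 of an 810-base 3′ UTR, and is printed with its flanks, the match in capitals.
FASN 3′ UTR site: ccagcggccccCCGCACAgccacccgtgg
The same letters occur in the 3′ UTRs of 2.43% of 19140 annotated genes. The miR-21 seed match (ATAAGCT) was in 0 of the 10 member 3′ UTRs and in 8.71% of all. A match is a description of letters, not a measured site.

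Promoters are shown for SCD, FADS2, ELOVL6 and AGPAT9, the 4 members with the widest range of levels over the libraries. Each window runs from 250 bases before to 50 after an annotated start (RefSeq, GRCh38.p14), and the capitals mark CCAAT, the letters bound by NF-Y, on either strand. The windows are chr10:100346983-100347282 on the plus strand for SCD, chr11:61816154-61816453 on the plus strand for the second FADS2 start, chr4:110198566-110198865 on the minus strand for ELOVL6 and chr4:83535857-83536156 on the plus strand for the first AGPAT9 start.
SCD: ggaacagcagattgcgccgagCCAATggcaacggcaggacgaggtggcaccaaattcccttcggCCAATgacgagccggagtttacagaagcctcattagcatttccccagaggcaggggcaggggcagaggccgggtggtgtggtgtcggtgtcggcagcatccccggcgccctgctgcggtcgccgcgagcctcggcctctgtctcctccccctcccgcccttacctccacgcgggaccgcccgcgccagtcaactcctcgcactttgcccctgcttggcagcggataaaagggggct
FADS2: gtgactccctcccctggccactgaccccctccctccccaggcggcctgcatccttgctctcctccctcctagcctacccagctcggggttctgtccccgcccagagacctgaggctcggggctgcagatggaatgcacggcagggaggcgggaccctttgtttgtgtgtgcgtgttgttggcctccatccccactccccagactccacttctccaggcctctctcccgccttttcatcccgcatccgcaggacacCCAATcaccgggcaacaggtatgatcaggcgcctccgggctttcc
ELOVL6: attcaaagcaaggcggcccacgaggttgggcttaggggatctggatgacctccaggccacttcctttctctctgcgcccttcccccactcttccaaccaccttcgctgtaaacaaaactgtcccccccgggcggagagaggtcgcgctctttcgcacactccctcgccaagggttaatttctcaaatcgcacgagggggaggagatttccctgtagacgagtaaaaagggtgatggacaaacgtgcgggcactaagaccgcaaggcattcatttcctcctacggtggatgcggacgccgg
AGPAT9: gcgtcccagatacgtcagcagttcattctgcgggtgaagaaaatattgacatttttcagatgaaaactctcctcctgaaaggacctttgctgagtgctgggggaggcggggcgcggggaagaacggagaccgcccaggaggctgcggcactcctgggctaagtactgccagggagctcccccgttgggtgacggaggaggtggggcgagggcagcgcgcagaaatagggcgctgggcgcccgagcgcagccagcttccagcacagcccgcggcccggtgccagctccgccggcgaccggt
SCD held 2 CCAAT boxes, the FADS2 window printed held 1 and the ELOVL6 and AGPAT9 windows held 0, as did the first FADS2 start and the FADS1 window. RefSeq promoters matched 9 of the 10 members, FASN being the exception, with 14 windows in all. CCAAT occurred in 7 of the 14 windows (those of ACLY, ACACA, SCD, ELOVL5 and FADS2), against 34.6% of 35116 promoters of the same length. The GC box GGGCGG was in 11 of the 14 windows and in 45% of all promoters. Windows of one gene can overlap, so letters can be counted more than once. The 2 ACLY windows hold the same CCAAT boxes, and the 2 AGPAT9 windows are nearly the same. Counted by gene, CCAAT was found for 5 of the 9 members and the GC box for 8, and no share by gene was taken over all promoters. The sterol response element TCACNCCAC was in 0 of the 14 windows and in 1.13% of all promoters. The E-box CACGTG was in the ELOVL5 window only, and in 7.26% of all promoters. Both strands were searched, and absence of the letters from these windows says nothing about binding of a factor.

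Library totals ranged from 15516460 to 29694050 expected counts (median 22026253), so that even the lowest member value, ELOVL6 in control PC9ER cells, rested on 50.3 expected counts. The epithelial markers EPCAM, CDH1, KRT8, KRT18 and KRT19 were detected in every library. Alveolar genes were found in HCC827 (NKX2-1 at 67.7 to 103 CPM) but were near 0 in PC9 (NKX2-1 at 0 to 0.22 CPM), and the surfactant gene SFTPC was at 0 in all PC9 libraries. The MIR147B transcript was at 23.0 CPM in AALE, 13.0 CPM in HCC827 and 2.83 CPM in PC9 cells overexpressing it, and at 0 in the other 18 libraries. The MIR21 transcript was at 0 in 20 libraries, so the mRNA libraries check neither miR-21 overexpression nor either knockdown. The PC9ER libraries of miR-21 knockdown and of its control stood apart from each other along base composition, as described with the knockdown results.

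Levels are in CPM, the expected counts scaled to a common library total. Per kilobase of merged exon, the median level over the 21 libraries was highest for FASN at 91.6 CPM per kilobase, followed by ACLY at 86.6 and SCD at 75.5 CPM per kilobase. The polyunsaturated acid elongase ELOVL5 stood at 38.4, SREBF1 at 26.9, FADS1 at 19.9, ACACA at 16.7, AGPAT9 at 10.6 and FADS2 at 10.1 CPM per kilobase. ELOVL6 was the lowest at 3.76 CPM per kilobase. The genes differed more in how far they varied than the pathway order would show. The highest library exceeded the lowest by 57.1-fold for SCD, 32.7-fold for ELOVL6, 21.8-fold for FADS2 and 16.5-fold for AGPAT9. For FASN, SREBF1, ACACA, FADS1 and ACLY it did so by 4.63-fold to 6.99-fold. ELOVL5 varied by 1.77-fold, from 103 CPM in scrambled-control PC9 to 182 CPM in scrambled-control AALE.

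Some of these values are uncertain because reads can be shared. FADS1 and FADS2 lie next to each other on chromosome 11 on opposite strands, with overlapping annotated spans (61799625 to 61829318 and 61792980 to 61867354 in the GENCODE annotation of GRCh38). Neither labels nor files say whether counting used the strand, so reads in the overlap cannot be told apart. For SCD, the pseudogene AL139819.1 carried expected counts equal to 8.21% to 18.6% of the CPM of SCD, with a median of 12.9%, and it tracked SCD closely across libraries.

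**Figure D1:**
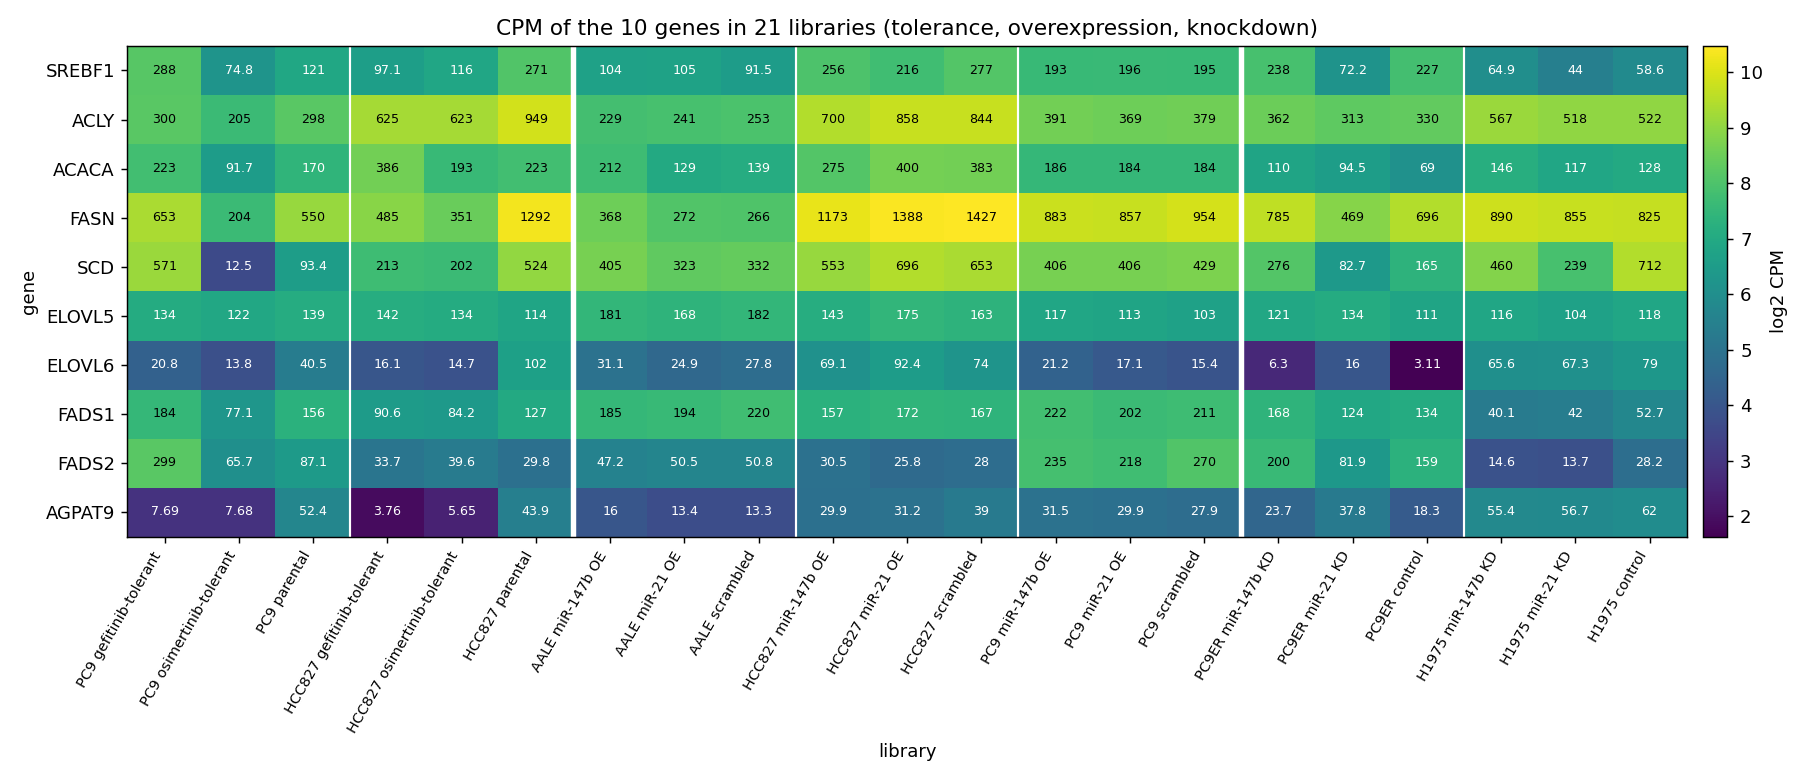
Levels of the 10 members (one row each) in the 21 libraries (columns, grouped by experiment and line), with the CPM printed in each cell and colour on a log scale. SCD ran between 12.5 and 712 CPM, whereas ELOVL5 stayed between 103 and 182 CPM.

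In cells that had become tolerant to an EGFR inhibitor, the 10 genes did not move as one block. AGPAT9 and ELOVL6 were lower in all 4 tolerant libraries than in their parental line, and FASN and SREBF1 were lower in 3 of 4. In PC9, 7 members were above parental cells with gefitinib, while all 10 were below parental cells with osimertinib. These 7 thus differed in direction between the drugs, SCD and FADS2 by the widest gap and ACLY with hardly any rise with gefitinib. Both drugs share 1 parental library per line, so the values of the drugs are set side by side. As bulk libraries, they cannot tell fewer cells of a kind from less RNA per cell.

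SREBF1 had 288 CPM in gefitinib-tolerant and 74.8 CPM in osimertinib-tolerant PC9 cells, against 121 CPM in parental PC9 cells. In HCC827 it had 97.1 CPM in gefitinib-tolerant and 116 CPM in osimertinib-tolerant cells, against 271 CPM in parental cells. Gefitinib-tolerant PC9 was thus the one tolerant library above its parental line for this regulator. On the log2 scale (of CPM plus 0.5) the differences from parental cells were 1.25 and -0.69 in PC9 and -1.48 and -1.23 in HCC827, gefitinib first.

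Up to palmitate, FASN was lower in 3 of the 4 tolerant libraries, ACACA in 2 and ACLY in 3. FASN had 653 CPM in gefitinib-tolerant and 204 CPM in osimertinib-tolerant PC9 cells, against 550.3 CPM in parental cells. In HCC827 it had 485 CPM in gefitinib-tolerant and 351 CPM in osimertinib-tolerant cells, against 1292 CPM in parental cells. Both osimertinib-tolerant libraries were the lower of the pair, at log2 differences of -1.43 (PC9) and -1.88 (HCC827) from parental cells. ACLY, which supplies the acetyl-CoA, was 300.3 and 205 CPM in gefitinib- and osimertinib-tolerant PC9, against 298 CPM in parental PC9, and 625 and 623 CPM in gefitinib- and osimertinib-tolerant HCC827, against 949 CPM in parental HCC827. The carboxylase ACACA was at 386 CPM in gefitinib-tolerant HCC827 and 193 CPM in osimertinib-tolerant HCC827, against 223 CPM in parental HCC827. It was the member with the highest log2 ratio in gefitinib-tolerant HCC827, at 0.79. In PC9 it was at 223 CPM in gefitinib-tolerant and 91.7 CPM in osimertinib-tolerant cells, against 170.1 CPM in parental cells, log2 ratios of 0.39 and -0.89.

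SCD, which makes oleate and palmitoleate, spanned the widest range. It had 571 CPM in gefitinib-tolerant and 12.5 CPM in osimertinib-tolerant PC9 cells, against 93.4 CPM in parental PC9 cells. In HCC827 it had 213 CPM in gefitinib-tolerant and 202 CPM in osimertinib-tolerant cells, against 524 CPM in parental cells. The osimertinib-tolerant PC9 library was the lowest of all 21 for SCD, and also the lowest for ACLY and FASN. The log2 ratios to parental cells were 2.61 and -2.86 in PC9 and -1.30 and -1.38 in HCC827, gefitinib first.

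The desaturases of polyunsaturated acids followed SCD in PC9. FADS2, the delta-6 desaturase, had 299 CPM in gefitinib-tolerant and 65.7 CPM in osimertinib-tolerant PC9 cells, against 87.1 CPM in parental PC9 cells. In HCC827 it had 33.7 CPM in gefitinib-tolerant and 39.6 CPM in osimertinib-tolerant cells, against 29.8 CPM in parental cells. The delta-5 desaturase FADS1 was at 184 and 77.1 CPM in gefitinib- and osimertinib-tolerant PC9, against 156 CPM in parental PC9. FADS1 in HCC827 was lower in both tolerant libraries, at 90.6 CPM with gefitinib and 84.2 CPM with osimertinib, against 127 CPM in parental cells. FADS3, a related gene that was not a member, was higher in all 4 tolerant libraries, at 44.7 and 78.9 CPM in gefitinib- and osimertinib-tolerant PC9, against 19.1 CPM in parental PC9, and at 90.9 and 83.7 CPM in gefitinib- and osimertinib-tolerant HCC827, against 23.2 CPM in parental HCC827.

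ELOVL6 and AGPAT9 had the same direction in every tolerant library. ELOVL6 had 20.8 CPM in gefitinib-tolerant and 13.8 CPM in osimertinib-tolerant PC9 cells, against 40.5 CPM in parental PC9 cells, and 16.1 CPM in gefitinib-tolerant and 14.7 CPM in osimertinib-tolerant HCC827 cells, against 102 CPM in parental HCC827 cells. The parental HCC827 library was the highest of the 21 for ELOVL6. AGPAT9 had 7.69 CPM in gefitinib-tolerant and 7.68 CPM in osimertinib-tolerant PC9 cells, against 52.4 CPM in parental PC9 cells. It had 3.76 CPM in gefitinib-tolerant and 5.65 CPM in osimertinib-tolerant HCC827 cells, against 43.9 CPM in parental HCC827 cells. All 4 tolerant libraries were below the other 17 of the series for AGPAT9, with log2 ratios to parental cells from -3.38 to -2.69. The other elongase, ELOVL5, had log2 ratios of -0.05 and -0.19 in PC9 and 0.32 and 0.23 in HCC827, gefitinib first.

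**Figure D2:**
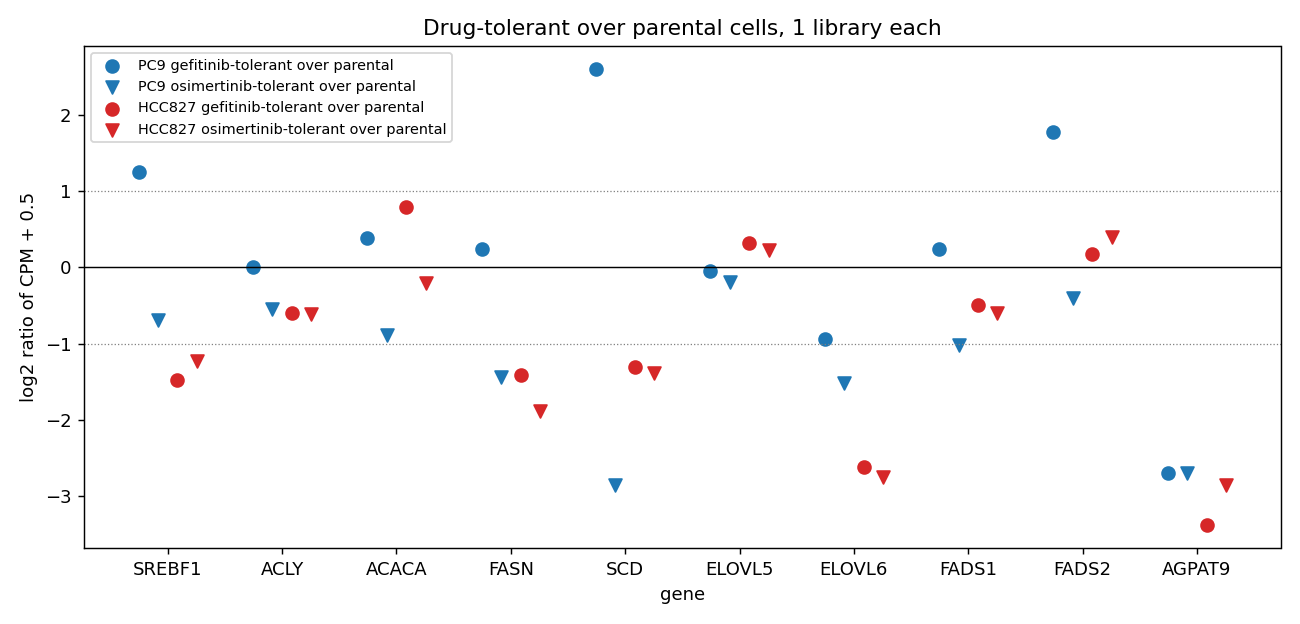
Log2 ratio of CPM plus 0.5, drug-tolerant over parental cells, for each member, with 1 point for each drug and line. AGPAT9 lies between -3.38 and -2.69 in all 4 comparisons, whereas SCD runs from 2.61 in gefitinib-tolerant PC9 to -2.86 in osimertinib-tolerant PC9.

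Counted by a 2-fold step, 3 members (SREBF1, SCD and FADS2) were higher and 1 (AGPAT9) was lower in gefitinib-tolerant PC9 than in parental PC9, where 12.2% of genes were higher and 3.43% lower by that step. In osimertinib-tolerant PC9, 5 members were lower and 0 higher, and all 10 had a ratio below 0; 4.45% of all genes were lower and 14.2% higher. In HCC827, 5 members were lower and 0 higher with gefitinib (12.8% of all genes lower, 16.6% higher, 29.4% in either direction). With osimertinib in HCC827, 5 were lower and 0 higher (11.1% of all genes lower, 18.6% higher, 29.7% in either direction). The member median log2 ratio was -0.95 in osimertinib-tolerant PC9, -0.95 in gefitinib-tolerant HCC827 and -0.92 in osimertinib-tolerant HCC827, against all-gene medians of 0.15, 0.05 and 0.13 in the same order. The member choice used these contrasts, so nothing is read from these counts.

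The fit over both lines, which takes the line as block, returned these differences from parental cells. AGPAT9 was at -3.25 ± 0.31 with gefitinib and -3.04 ± 0.31 with osimertinib (log2 fold change ± SE). ELOVL6 was at -1.95 ± 0.45 with gefitinib, and FASN at -1.86 ± 0.43 with osimertinib. SCD was at 1.30 ± 1.32 with gefitinib and -1.97 ± 1.22 with osimertinib (SE). In neither fit did any of 19837 genes pass an adjusted p of 0.05 (0% called in both; edgeR, Benjamini-Hochberg), with 3468 and 3924 genes at an unadjusted p under 0.05 for gefitinib and osimertinib. DESeq2 called 1345 and 1754 genes. Without the parental PC9 library, where the contrast rests on HCC827 alone, 3528 and 3933 genes were called, 2 and 3 members among them.

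Other marker lists moved in the same libraries. All 10 cell cycle markers were lower in tolerant cells in both fits, and their summed level was 1533 CPM in gefitinib-tolerant and 1585 CPM in osimertinib-tolerant PC9, against 2856 CPM in parental PC9. In HCC827 that sum was 285 CPM with gefitinib and 412 CPM with osimertinib, against 2921 CPM in parental cells. The summed level of 6 fibroblast markers was 28.2 and 78.4 CPM in gefitinib- and osimertinib-tolerant PC9, against 21.3 CPM in parental PC9, and 95.3 and 144 CPM in gefitinib- and osimertinib-tolerant HCC827, against 15.3 CPM in parental HCC827. The summed level of 5 leukocyte markers was 19.8 and 4.33 CPM in gefitinib- and osimertinib-tolerant PC9, against 2.14 CPM in parental PC9, and 0.68 and 1.26 CPM in gefitinib- and osimertinib-tolerant HCC827, against 2.20 CPM in parental HCC827. COL1A1 made up most of the fibroblast sum, and over all PC9 and HCC827 libraries COL1A2, DCN and PDGFRB stayed at or below 1.05 CPM. CD14 made up most of the leukocyte sum, at up to 14.3 CPM in PC9, with PTPRC at no more than 2.83 CPM in PC9 and 0.43 CPM in HCC827. In the fits over both lines, 5 of the 6 fibroblast markers were tested, 4 higher and 1 lower with either drug. Their median log2 fold change was 1.35 with gefitinib and 2.24 with osimertinib, and 0 were called. Of 6 fat cell markers 2 were tested, 0 higher and 2 lower with either drug, with medians of -0.84 and -0.59 and 0 called. Among the fat cell markers, FABP4 was at 0 in all PC9 and HCC827 libraries. Of 3 airway basal markers 0 were higher and 3 lower with either drug, with medians of -2.22 with gefitinib and -1.45 with osimertinib. Of 4 alveolar markers 3 were tested, 1 higher and 2 lower with either drug, with medians of -1.66 and -1.04. Of 5 epithelial markers 1 was higher and 4 lower, with medians of -0.16 and -0.31. In these lists 0 were called, and KRT14, TP63 and NKX2-1 were low in PC9. The part of these cell states in the levels of the 10 genes was not tested.

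Base composition also moved in HCC827. The decile of genes of lowest GC content had a median log2 ratio to parental cells of 0.53 with gefitinib and 0.64 with osimertinib, and that of highest GC content -0.41 and -0.31. FASN (65.3% GC) stood at -1.41 with gefitinib and -1.88 with osimertinib, against -0.41 and -0.31 for its GC decile, and SREBF1 (64.7% GC) at -1.48 and -1.23, against the same decile medians. ELOVL6 stood at -2.62 and -2.75, against 0.33 and 0.40 for its decile, AGPAT9 at -3.38 and -2.85, against 0.19 and 0.27, and SCD at -1.30 and -1.38, against 0.09 and 0.16. These 5 are the members that were lower by 2-fold or more with either drug. Their place below the median of their decile therefore follows from how they were picked, and nothing is read from it. The other members are not set against their deciles here, and the part of base composition in any member ratio was not tested.

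The comparison of osimertinib-tolerant with gefitinib-tolerant cells asks whether the drugs left the lipid genes in different states. The members were chosen with the levels in these libraries known, so the counts and ratios within each line are a description and nothing is read from them. In PC9 all 10 members were lower in osimertinib-tolerant than in gefitinib-tolerant cells, 6 of them by 2-fold or more, where 2.72% of all genes were lower by that step. The member median log2 ratio in PC9 was -1.26, against 0.00 for all genes. The ratio was -5.46 for SCD, -2.18 for FADS2, -1.94 for SREBF1, -1.68 for FASN, -1.28 for ACACA and -1.25 for FADS1, while AGPAT9 was at 0.00. In HCC827, 0 members were lower by more than 2-fold (1.22% of all genes), ACACA being nearest at -1.0, and the median was -0.08, against 0.08 for all genes.

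Over both lines, no member passed the test of osimertinib-tolerant against gefitinib-tolerant cells. This fit uses the same libraries, so its member values are a description as well. Adjusted p was 1 for each of the 10 (edgeR quasi-likelihood test, Benjamini-Hochberg over 19837 genes), and 0 genes in all were called (0%), with 198 at an unadjusted p under 0.05. DESeq2 called 7 genes. The log2 fold changes were -3.27 ± 1.49 for SCD, -1.21 ± 0.43 for FASN, -1.20 ± 0.27 for ACACA, -1.11 ± 0.68 for SREBF1 and -1.10 ± 0.60 for FADS2 (SE), with both lines lower for FASN, ACACA and SCD. In HCC827 the SCD difference was slight, at 202 CPM in osimertinib-tolerant and 213 CPM in gefitinib-tolerant cells. SREBF1 and FADS2 were lower in PC9 and higher in HCC827. Without the gefitinib-tolerant PC9 library, SCD was at -0.51, FASN at -0.46, FADS2 at -0.066, SREBF1 at 0.28 and ELOVL6 at 0.096. ACACA lay between -1.46 and -0.98 over the fits that each left out 1 library.

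**Figure D3:**
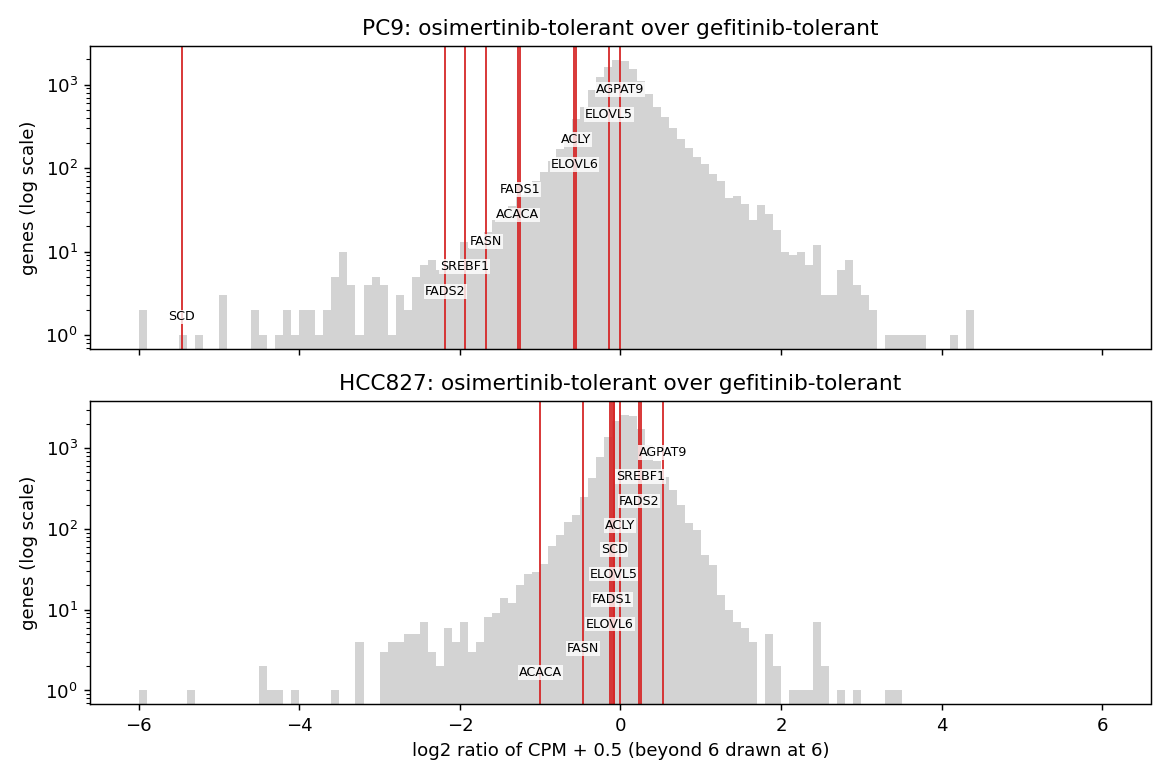
Log2 ratio of osimertinib-tolerant over gefitinib-tolerant cells for all genes with a mean of at least 1 CPM (histograms), with the 10 members marked, in PC9 and in HCC827. In PC9 the members lie between -5.46 and 0.00 with a median of -1.26, and in HCC827 their median is -0.08.

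The sterol branch moved beside the members in PC9. SREBF2, which encodes the regulator of cholesterol genes, had 295.7 CPM in gefitinib-tolerant and 106 CPM in osimertinib-tolerant PC9, against 115 CPM in parental PC9. In HCC827 it had 113 CPM with gefitinib and 102 CPM with osimertinib, against 114 CPM in parental cells. INSIG1, the retention protein of SREBP, had 33.3 CPM in gefitinib-tolerant and 5.93 CPM in osimertinib-tolerant PC9, against 9.68 CPM in parental PC9. Of 8 cholesterol pathway genes, 7 were lower in the osimertinib-tolerant than in the gefitinib-tolerant cells in the fit over both lines, with a median log2 fold change of -0.80, against -0.02 for all genes. None of the 8 passed the test. INSIG1 was at -1.64 ± 0.56 and SREBF2 at -0.93 ± 0.40 (SE), with an adjusted p of 1 for both (edgeR).

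Whether the tolerant state differed between HCC827 and PC9 was tested as an interaction, with the spread taken between the drugs. The contrast is between ratios to parental cells that were known when the members were chosen. Member values in it are therefore a description. Of 19837 genes, 773 passed (3.9%), 380 higher (1.92%) and 393 lower (1.98%) in HCC827, and 0 of the 10 members did. The member nearest to the threshold was ELOVL6, at -1.44 ± 0.41 with an adjusted p of 0.111 (edgeR), which DESeq2 put at an adjusted p of 0.0419. SCD was at -2.94 ± 2.54 and SREBF1 at -1.89 ± 1.08 (SE). Of the 10 cell cycle markers 7 passed, all lower. Of the 106 pathway genes listed around the members, 5 passed. HILPDA, a lipid droplet protein that inhibits lipolysis, was at -2.40 ± 0.36, and the E-box factor gene USF1 at -1.33 ± 0.22. The mitochondrial enzyme genes ECHS1 and ACADM were at -1.32 ± 0.20 and 1.54 ± 0.24, and the elongase ELOVL7 at 1.38 ± 0.21 (adjusted p 0.0409 to 0.0473, edgeR). Leaving out any 1 of the tolerant libraries left 0 calls over all genes.

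Overexpression of miR-147b or miR-21 left every member within 2-fold of its scrambled control in AALE, HCC827 and PC9. The miRNAs of one line share 1 scrambled library. With miR-147b, the share of genes higher and lower by 2-fold was 1.51% and 2.05% in AALE, 1.41% and 0.207% in HCC827 and 0.736% and 0.631% in PC9. With miR-21 it was 0.739% and 0.329% in AALE, 0.369% and 0.432% in HCC827 and 0.352% and 0.768% in PC9. FASN, the member with the miR-147b seed match printed above, had 368 CPM in AALE with miR-147b, against 266 CPM with the scrambled control. In HCC827 FASN had 1173 CPM with miR-147b and 1427 CPM with the scrambled control, and in PC9 883 CPM with miR-147b and 954 CPM with the scrambled control. Its ratio was above 0 in AALE and below 0 in HCC827 and PC9.

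The largest member differences under overexpression were small. ACACA had 212 CPM in AALE with miR-147b, against 139 CPM with the scrambled control, a log2 ratio of 0.60. In HCC827 with miR-147b, 9 of the 10 members were lower than in the scrambled control, with ACACA at 275 CPM with miR-147b, against 383 CPM in the scrambled control, and AGPAT9 at 29.9 CPM with miR-147b, against 39.0 CPM in the scrambled control. In PC9 with miR-147b, ELOVL6 had 21.2 CPM, against 15.4 CPM with the scrambled control. Over the lines, 1 of 18433 genes passed for miR-147b (0.00543%) and 0 for miR-21 (0%), with 828 and 171 at an unadjusted p under 0.05 (edgeR). DESeq2 called 7 and 1 genes. None of the called genes in the edgeR fits was a member.

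Knockdown gave other pictures in H1975 and PC9ER. In H1975, SCD and FADS2 were lower with either reagent. SCD had 460.3 CPM with miR-147b knockdown and 239 CPM with miR-21 knockdown, against 712 CPM in control H1975 cells, and FADS2 had 14.6 and 13.7 CPM with miR-147b and miR-21 knockdown, against 28.2 CPM in control H1975 cells. With miR-21 knockdown these were the 2 members beyond 2-fold, at -1.58 and -1.01 (1.05% of all genes lower, 0.614% higher). With miR-147b knockdown 0 members were (0.896% lower, 0.512% higher). The control library is shared by both reagents. The remaining members of H1975 lay between -0.41 (SREBF1) and 0.05 (FASN) with miR-21 knockdown.

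In PC9ER all 10 members were higher with miR-147b knockdown than in control cells, 0 of them by 2-fold (2.07% of all genes higher, 1.1% lower), with a median log2 ratio of 0.32, against 0.06 for all genes. SCD had 276 CPM with miR-147b knockdown and 82.7 CPM with miR-21 knockdown, against 165 CPM in control PC9ER cells. ELOVL6 had 6.30 CPM with miR-147b knockdown and 16.0 CPM with miR-21 knockdown, against 3.11 CPM in control PC9ER cells. AGPAT9 had 23.7 and 37.8 CPM with miR-147b and miR-21 knockdown, against 18.3 CPM in control PC9ER cells. For both, the control was the lowest of the 3 PC9ER libraries. SREBF1 had 238 CPM with miR-147b knockdown and 72.2 CPM with miR-21 knockdown, against 227 CPM in control PC9ER cells, and FADS2 had 200.2 and 81.9 CPM with miR-147b and miR-21 knockdown, against 159 CPM in control PC9ER cells.

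With miR-21 knockdown in PC9ER, ELOVL6 (2.19) and AGPAT9 (1.03) were higher by 2-fold or more and SREBF1 (-1.64) lower, but 24.5% of all genes were higher and 2.2% lower by that step. Base composition also differed between this library and its control. Genes were split into deciles of GC content and of length. The decile of lowest GC content had a median log2 ratio of 1.90 and that of highest GC content -0.43, while the decile of the shortest genes was at -0.36 and that of the longest at 1.19. In H1975 the GC ends were at -0.12 and 0.20 for the same knockdown, lowest GC first. With miR-147b knockdown in PC9ER, which shares the control library, they were at 0.31 and -0.08. The PC9ER control itself had GC ends of -1.38 and 0.36 against scrambled-control PC9, a pair that also differs in line and experiment. Which PC9ER library departs along GC content was not tested. Set against the median of genes in its own GC decile, ELOVL6 (41.2% GC) was at 2.19, against 1.13, and AGPAT9 (44.1% GC) at 1.03, against 0.64. SREBF1 (64.7% GC) was at -1.64, against -0.43, SCD (47.1% GC) at -0.99, against 0.25, and FADS2 (60.7% GC) at -0.95, against -0.44. These are the members with the widest ratios in this comparison. Their place beyond the median of their decile therefore follows in part from how they were picked, and nothing is read from it. The other members are not set against their deciles here, and how far base composition sets any member ratio was not tested.

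**Figure D4:**
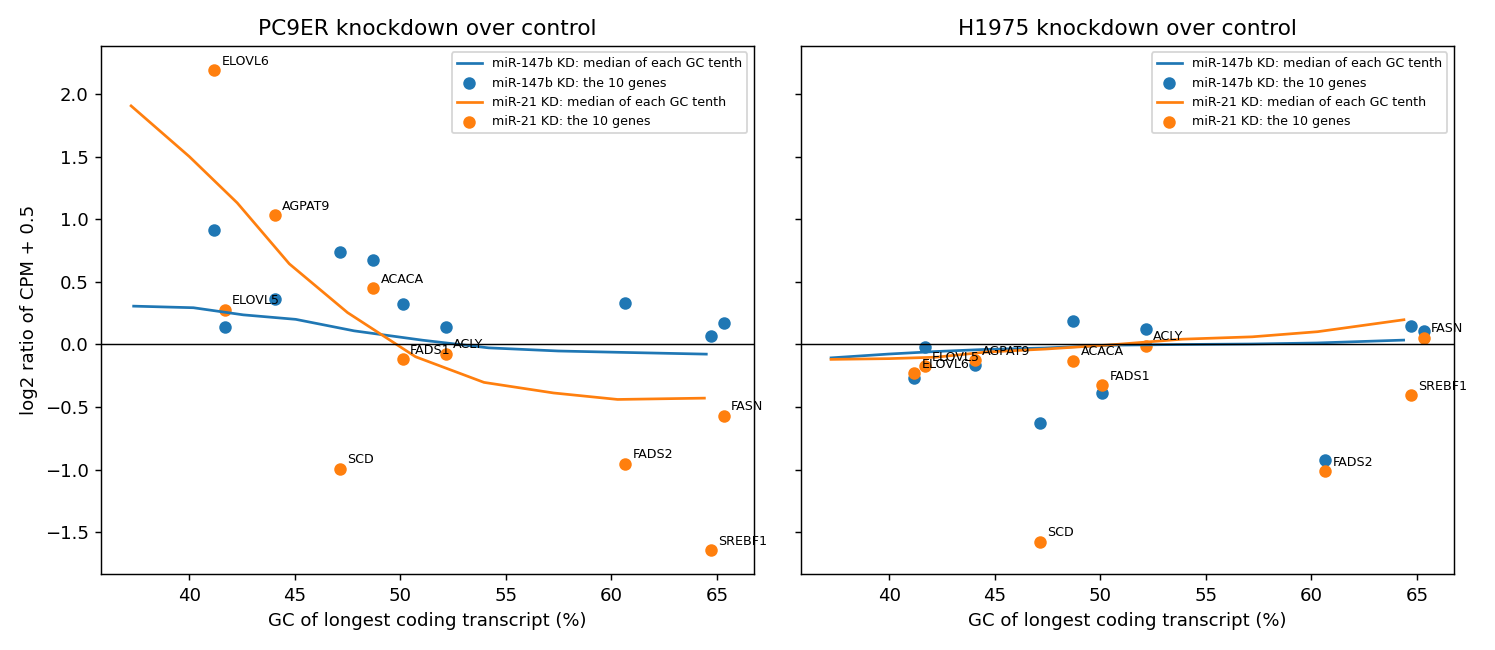
Median log2 ratio of miR-147b knockdown and of miR-21 knockdown over control by decile of gene GC content, in PC9ER (left) and H1975 (right). Each knockdown has its own line (lowest GC at the left) and the 10 members as points. In PC9ER the miR-21 knockdown line stands at 1.90 in the lowest decile and -0.43 in the highest. In H1975 the ends of the miR-21 knockdown line are at -0.12 and 0.20.

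In the fits over both lines, 0 of 17723 genes passed for miR-147b knockdown and 0 for miR-21 knockdown (0% each; edgeR), with 146 and 357 at an unadjusted p under 0.05. DESeq2 called 26 and 37 genes. Without the H1975 miR-21 knockdown library, 5595 genes and 5 members were called for miR-21 knockdown, a fit in which that knockdown rests on the PC9ER library alone.

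The cell lines differed in 6 to 9 of the 10 members, depending on the comparison, beside 46.1% to 66.3% of all genes. With so many genes called, nothing particular to the members is read from these counts. Libraries of 1 line are no replicates of a cell type, and the tests say how these lines differ beyond the spread of their 3 libraries each. In AALE, 8 of the 10 members were lower than in HCC827 and PC9 combined and 0 were higher, among 18433 genes of which 66.3% were called (34.4% higher, 32% lower). FASN had 368, 272 and 266 CPM in AALE with miR-147b, miR-21 and the scrambled control, below all 6 HCC827 and PC9 libraries (857 to 1427 CPM). Its log2 fold change was -2.06 ± 0.16, the largest of the members in this contrast (adjusted p 2.5e-06, edgeR).

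ACLY was at -1.40 ± 0.10, AGPAT9 at -1.35 ± 0.14, SREBF1 at -1.34 ± 0.11, FADS2 at -0.93 ± 0.09, ACACA at -0.88 ± 0.20, SCD at -0.74 ± 0.13 and ELOVL6 at -0.62 ± 0.14 (SE) in the same test. For ELOVL6 the AALE libraries (24.9 to 31.1 CPM) lay above PC9 (15.4 to 21.2 CPM) and below HCC827 (69.1 to 92.4 CPM). For FADS2 they lay between HCC827 (25.8 to 30.5 CPM) and PC9 (218 to 269.7 CPM). The genes that did not pass were ELOVL5, at 0.21 ± 0.10 (adjusted p 0.0884, edgeR; 0.41 with an adjusted p of 0.00266 when scaled by library totals alone), and FADS1, at -0.11 ± 0.08 (adjusted p 0.252, edgeR). FADS1 reached 0.09 under that scaling, while the signs of the other 9 held. AALE also carried high levels of the airway basal genes KRT5 (1590 to 4355 CPM), KRT14 and TP63, which HCC827 had at 0 to 18.7 CPM each. PC9 had KRT5 at 54.8 to 347 CPM, KRT14 at 0.08 to 1.94 CPM and TP63 at 1.14 to 2.77 CPM. Of 10 cell cycle markers 9 were lower in AALE, 8 of them called, with a median log2 fold change of -1.33 against 0.04 for all genes, and 4 of 5 epithelial markers were called lower. The part of these markers in the member differences was not tested.

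Set against PC9, HCC827 libraries differed in 9 of the 10 members, 7 higher and 2 lower, among 62% of all genes called (31.6% higher, 30.4% lower). FADS2 had 30.5, 25.8 and 28.0 CPM in HCC827 with miR-147b, miR-21 and the scrambled control, against 235, 218 and 269.7 CPM in PC9 in the same order. The groups did not overlap, and the log2 fold change was -3.12 ± 0.11 (adjusted p 3.28e-08, edgeR). ELOVL6 was the opposite case, at 69.1, 92.4 and 74.0 CPM in HCC827, against 21.2, 17.1 and 15.4 CPM in PC9, with a log2 fold change of 2.12 ± 0.17 (adjusted p 3.95e-06, edgeR). ACLY was 1.05 ± 0.11 and ACACA 0.92 ± 0.23 higher in HCC827. SCD (0.59 ± 0.15), FASN (0.54 ± 0.17), ELOVL5 (0.51 ± 0.12) and SREBF1 (0.33 ± 0.12) were higher by less, and FADS1 was lower (-0.38 ± 0.10). AGPAT9, at 0.14 ± 0.15 (adjusted p 0.438, edgeR), did not pass.

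The calls of SREBF1 and FASN were the least firm of these. SREBF1 missed the threshold with DESeq2's median-ratio scaling (adjusted p 0.0615) and in 6 of the 9 fits that each left out 1 library. FASN missed it in 4 of those 9.

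In PC9ER, set against H1975, 6 of the 10 members passed, among 46.1% of all genes called (24.8% higher, 21.2% lower). SREBF1, FADS1 and FADS2 were higher, and SCD, ELOVL6 and AGPAT9 were lower. FADS2 had 200.2, 81.9 and 159 CPM in PC9ER with miR-147b knockdown, miR-21 knockdown and the control, against 14.6, 13.7 and 28.2 CPM in H1975 in the same order, a log2 fold change of 3.00 ± 0.36 (adjusted p 0.00202, edgeR). ELOVL6 had 6.30, 16.0 and 3.11 CPM in PC9ER, against 65.6, 67.3 and 79.0 CPM in H1975, a log2 fold change of -3.29 ± 0.50 (adjusted p 0.00427, edgeR). FADS1 was at 1.72 ± 0.25, SREBF1 at 1.58 ± 0.36, SCD at -1.40 ± 0.31 and AGPAT9 at -1.13 ± 0.28. ACLY, at -0.62 ± 0.21, missed the threshold by little (adjusted p 0.0541, edgeR). Left without either miR-21 knockdown library, the test called 8 members, and without the PC9ER miR-147b knockdown library it called 3. The AGPAT9 call was lost in 4 of the 6 fits with 1 library left out, the SREBF1 call in 2 and the FADS1 call in 1. The members called lower had 41.2% to 47.1% GC and those called higher 50.1% to 64.7%. ELOVL5 (41.7% GC) and FASN (65.3% GC) did not pass. Against scrambled-control PC9, the PC9ER control had medians of -1.38 in the lowest GC decile and 0.36 in the highest. The part of base composition in the calls between PC9ER and H1975 was not tested.

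**Figure D5:**
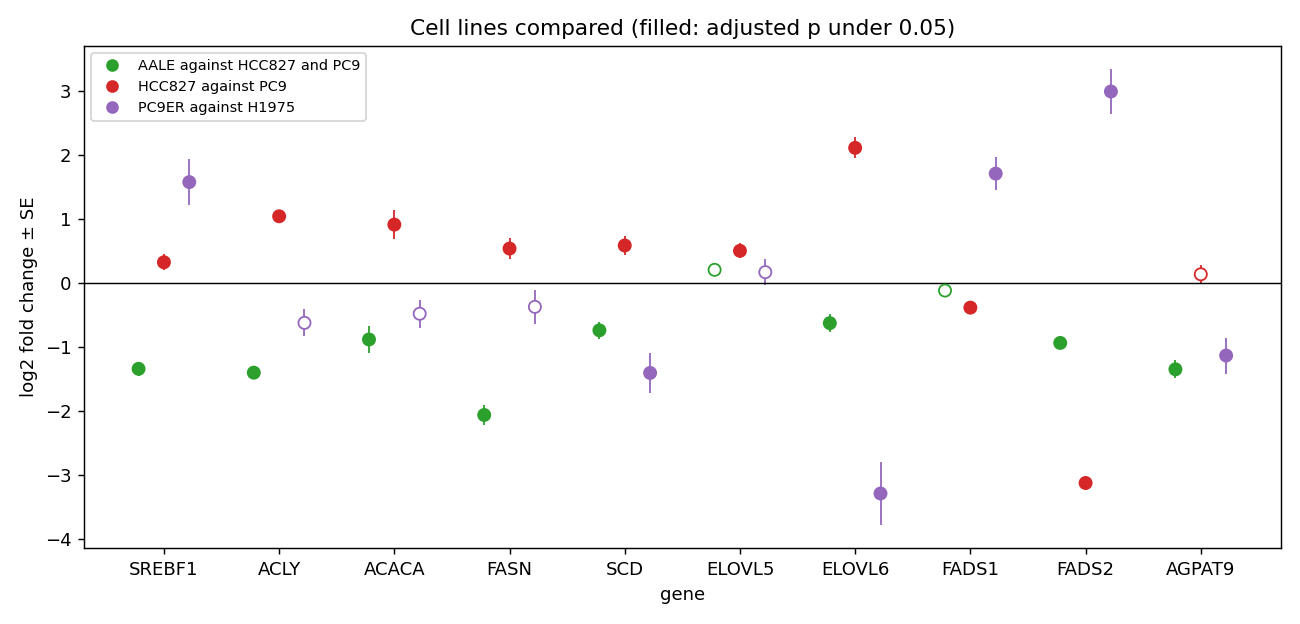
Log2 fold change ± SE of each member in 3 comparisons of cell lines (AALE against HCC827 and PC9, HCC827 against PC9, PC9ER against H1975), with filled points where the adjusted p is under 0.05. FADS2 runs from -3.12 in HCC827 against PC9 to 3.00 in PC9ER against H1975, and FASN has its lowest value, -2.06, in AALE.

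PC9 libraries of the same line were not at one level. SCD had 429 CPM in scrambled-control PC9, against 93.4 CPM in parental PC9, and FADS2 had 269.7 CPM in scrambled-control PC9, against 87.1 CPM in parental PC9. These log2 ratios were 2.19 and 1.63, beside 2.61 and 1.78 for gefitinib-tolerant PC9, which shares the parental library. SREBF1, at 195 CPM in scrambled-control and 121 CPM in parental PC9, and SREBF2, at 318 CPM in scrambled-control and 115 CPM in parental PC9, also stood higher without any drug. ELOVL6, at 15.4 CPM in scrambled-control and 40.5 CPM in parental PC9, stood lower. Without any drug it was thus below gefitinib-tolerant PC9 (20.8 CPM) and just above osimertinib-tolerant PC9 (13.8 CPM). In this pair 2 members were higher by 2-fold and 1 lower, where 7.27% of all genes were higher and 4.53% lower. The GC ends moved too, at -0.64 for the lowest decile and 0.41 for the highest. The pair differs in the lentivirus, the selection and the experiment, which cannot be told apart. In HCC827 the scrambled and parental libraries differed by 2-fold in 0 members (3.62% of all genes higher, 5.95% lower).

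Around the members, genes of 5 lists (106 genes) were followed, namely regulators of SREBP and ChREBP, partners of fatty acid supply and elongation, glycerolipid assembly, lipid droplets and lipolysis, and fatty acid oxidation. In osimertinib-tolerant against gefitinib-tolerant cells, 0 genes of any list passed. Of 19 regulators tested 16 were lower, with a median of -0.14, and of 22 supply and elongation genes 15 were lower, with a median of -0.08, against -0.02 for all genes. Glycerolipid assembly had 12 of 21 lower, lipid droplets 9 of 14 and oxidation 11 of 21. Against parental cells, oxidation genes stood higher in 15 of 21 in both fits, with medians of 0.33 for gefitinib and 0.21 for osimertinib, and 0 passed.

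Between lines, genes of these lists were called in both directions, except for oxidation genes in PC9ER against H1975. In AALE against HCC827 and PC9, where 34.4% of all genes were called higher and 32% lower, 5 of 19 regulators were called higher and 12 lower. Of 21 supply genes 11 were called higher and 9 lower, of 21 glycerolipid genes 10 and 5, of 14 droplet genes 4 and 6, and of 22 oxidation genes 4 and 12. In HCC827 against PC9, where the shares of all genes were 31.6% higher and 30.4% lower, 14 of the 22 oxidation genes were called higher and 3 lower. Of the 19 regulators 4 were called higher and 10 lower there, of the 21 supply genes 6 and 12, of the 21 glycerolipid genes 7 and 10, and of the 14 droplet genes 4 and 5. In PC9ER against H1975, where 24.8% of all genes were called higher and 21.2% lower, 0 of 21 oxidation genes were called higher and 5 lower. Of 19 regulators 5 were called higher and 4 lower, of 21 supply genes 8 and 4, of 21 glycerolipid genes 9 and 5, and of 13 droplet genes 3 and 4.

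Several genes next to the members differed widely between lines. MID1IP1, whose protein activates acetyl-CoA carboxylase, was at 18.5 to 56.0 CPM in HCC827, 68.7 to 79.6 CPM in AALE and 53.7 to 63.3 CPM in H1975. In PC9 it was at 0 to 0.11 CPM, with 4 of 6 libraries at 0, and in PC9ER at 0 to 0.05 CPM. PLIN2, the main coat protein of lipid droplets, was at 32.9 to 111 CPM in HCC827, against 1.57 to 3.78 CPM in PC9, and at 2.37 to 3.12 CPM in PC9ER, against 103 to 122 CPM in H1975. DGAT2, which completes triglycerides, ran the other way, at 1.44 to 7.70 CPM in HCC827, against 10.8 to 22.1 CPM in PC9. SCD5, a second delta-9 desaturase, was at 3.55 to 23.0 CPM in HCC827, against 27.6 to 60.0 CPM in PC9, and at 40.0 to 47.1 CPM in PC9ER, against 1.73 to 2.26 CPM in H1975. PC9 and its derivative PC9ER thus shared low MID1IP1 and PLIN2 and high SCD5 and FADS2.

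Across the 21 libraries, after centring within line and experiment, the members fell into loose groups. Pearson's r was 0.90 for ACLY with FASN, 0.90 for FADS1 with SCD, 0.88 for ELOVL6 with AGPAT9, 0.83 for SREBF1 with SCD, 0.82 for SCD with FADS2 and 0.80 for SREBF1 with FASN. FADS2 and AGPAT9 ran at -0.32. Without centring, r was 0.75 for ACLY with FASN, 0.21 for FADS1 with SCD, 0.54 for ELOVL6 with AGPAT9, 0.39 for SREBF1 with SCD, -0.12 for SCD with FADS2 and 0.51 for SREBF1 with FASN, so the grouping depends on the centring. These are descriptions over libraries that share controls and depth, and the tolerance libraries span most of the range. Among 10395 genes, the pattern most like that of FASN was TGM2 (0.97), and that most like AGPAT9 was TTC4 (0.97). SCD was followed by its own pseudogene AL139819.1 (0.98) and then SPRY1 (0.96). Without the centring other genes came first for FASN and AGPAT9, ENO1 (0.95) and FAM54A (0.93).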

How the data were processed

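The data were 3 tables of expected counts per gene that the authors deposited, covering 21 mRNA libraries. Per the submitters' processing notes, reads went through Bowtie2 and RSEM against GRCh37; their versions and the use of strand were not stated in the labels or files. The read summary that the authors deposited lists, per library, the yield (a signal in megabases) and the percent of bases of high quality; neither entered a test. Expected counts were rounded to whole numbers and tested with edgeR 4.0.16 in R 4.3.3 (quasi-likelihood fit, TMM scaling, filterByExpr). P-values were adjusted by Benjamini-Hochberg over the genes that passed the filter in each fit (19837 for tolerance, 18433 for overexpression and 17723 for knockdown), with a threshold of 0.05.

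The line was a block in the tolerance, overexpression and knockdown fits, since it is what replicates share. Libraries of the same line deviated together there, with correlations of 0.71 to 0.86, 0.90 to 0.92 and 0.80 to 0.93. In the comparisons of lines, the miRNA group was the block. DESeq2 1.42.0 and limma 3.58.1 gave alternatives. The edgeR fit was tried on simulated counts with known changes for some of the contrasts, and the other steps were not. Pair ratios used log2(CPM + 0.5) for genes with a mean of at least 1 CPM. Over a pair of libraries nothing was tested. Likeness was measured over genes with a mean of at least 10 CPM. Member lengths, GC content and 3′ UTRs are from GENCODE on GRCh38, with 96.6% to 97.3% of the genes compared having a value.

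The libraries held 15516460 to 29694050 counts, and in tests that rest on 1 library the lone one is assumed to vary like the rest. The members and lists were chosen with earlier results of these data known. Named genes were all members, and from each list up to 4 passing genes by p or, with none passing, the 2 of largest change with one sign in every line.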

Additional observations from a re-analysis of the deposited data

Results flagged for a closer look

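In 10 of 50 comparisons of 2 lines under the same kind of contrast, both libraries of one line lay on one side of their control and both libraries of the other line on the opposite side. The differences below are between mean log2 ratios, and none of them was tested. Both libraries of a line share its 1 control library, whose part in these moves was not tested.

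ELOVL6 differed by 1.80 between PC9ER and H1975 under knockdown (mean 1.55 in PC9ER and -0.25 in H1975). AGPAT9 differed by 0.84 (0.70 in PC9ER and -0.14 in H1975), and ELOVL5 by 0.30 (0.21 in PC9ER and -0.10 in H1975). The PC9ER library with miR-21 knockdown also differed from its control along GC content, as the report gives. Under drug tolerance ELOVL5 differed by 0.39 (0.27 in HCC827 and -0.12 in PC9).

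Under overexpression, AALE and HCC827 differed by 0.43 in SREBF1 (0.19 in AALE and -0.24 in HCC827), 0.41 in FASN (0.25 in AALE and -0.16 in HCC827) and 0.48 in AGPAT9 (0.13 in AALE and -0.35 in HCC827). AALE and PC9 differed by 0.38 in FASN (0.25 in AALE and -0.13 in PC9) and by -0.22 in ELOVL5 (-0.06 in AALE and 0.16 in PC9). HCC827 and PC9 differed by -0.48 in AGPAT9 (-0.35 in HCC827 and 0.14 in PC9).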

How the results depend on the processing

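Of 1782 member values under all alternatives, 1640 kept direction and side of the threshold or, in the untested comparisons with controls, moved by no more than 1 SE, 18 lost a call, 9 gained one, 10 reversed (counted where a test was made) and 105 moved by more than 1 SE (for member medians, 1 SD); the causes were not tested. With no replicate block, 0 genes were called for each drug or miRNA contrast, the 1 gene of miR-147b overexpression included; library-sum scaling and a filter of 1 CPM also left 0 there, and limma voom 4. Without a filter on low counts, genes called were 47 (gefitinib, 1 member), 137 (osimertinib, 1 member), 519 (both drugs, 2 members), 3 (interaction), 266 and 77 (miR-147b and miR-21 overexpression), 29 and 39 (their knockdown). DESeq2 called 1345 (2 members), 1754 (3 members), 2477 (3 members), 2351 (1 member), 7 and 1, 26 and 37 in that order, and 7 for osimertinib- against gefitinib-tolerant cells. Leaving out 1 library gave 0 to 3528 genes for gefitinib (0 to 2 members), 0 to 3933 for osimertinib (0 to 3), 10 to 4558 for both drugs (0 to 3), each highest without parental PC9. It gave 0 to 3 for osimertinib- against gefitinib-tolerant cells, 0 to 0 for the interaction, 0 to 14 for miR-147b overexpression, 13 to 134 for miR-147b knockdown and 1 to 5595 for miR-21 knockdown (0 to 5 members). For cell lines it gave 10889 to 12069 (AALE), 9905 to 12115 (HCC827 against PC9) and 4614 to 12047 (PC9ER against H1975, 3 to 8 members). Of the 1620 values of single members, 119 had another sign than the reported one. In the untested comparisons these included, with 1 library left out, SREBF1 (-1.41 to 0.98) and SCD (-1.79 to 2.80) for gefitinib and FADS2 (-1.01 to 0.59) for osimertinib, and miR-147b overexpression had the most, 37 over all alternatives. In the tested comparisons, values that changed sign, as ranges over the fits with 1 library left out, were SREBF1 (-2.11 to 0.28), ELOVL6 (-0.91 to 0.096) and AGPAT9 (-0.085 to 0.53) in osimertinib- against gefitinib-tolerant cells. In the interaction they were ACLY (-0.57 to 0.026), ACACA (-0.071 to 1.38), SCD (-3.90 to 1.65), FADS1 (-0.74 to 0.56) and FADS2 (-1.44 to 0.79), and in HCC827 against PC9 AGPAT9 (-0.049 to 0.30). The sign changes followed gefitinib-tolerant PC9, or gefitinib-tolerant HCC827 for AGPAT9 and ACACA of the tolerance fits and scrambled HCC827 for AGPAT9 between lines. Scaling by library sum put the all-gene median at 0.25 for AALE, 0.15 for gefitinib, 0.21 for osimertinib and 0.12 for miR-21 knockdown, where TMM had 0.043, 0.046, 0.036 and -0.015; FADS1 in AALE was then at 0.091, below that median. Depth limited none of the 10 members, but 1 library per line and condition did.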
